A study of Mus musculus with 60 samples.

Results

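The genes described here encode the constitutive subunits of the mouse proteasome, the large protease that degrades ubiquitin-tagged proteins. They were chosen by symbol, as every Illumina probe whose annotated gene is named Psma, Psmb, Psmc or Psmd followed by a number, leaving out the immunoproteasome subunits Psmb8, Psmb9 and Psmb10. Of 19057 genes with a probe, 36 had such a symbol, represented by 65 probes, and 31 of them were detected (detection p under 0.01 on at least 3 arrays) in each macrophage experiment. In injured artery 27 of the 36 met it. Psma1, Psma3, Psma6, Psmb11 (a thymus-specific catalytic subunit) and Psmd3 were detected on no array by the probes carried here, and Psma8 (a testis-enriched alpha subunit), Psmc6, Psmd2 and Psmd9 did not meet this detection rule in artery.

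The 60 arrays formed 20 groups of 3. In the main macrophage experiment, bone marrow-derived macrophages labelled ATF3-/- and wild type (WT) were each treated in 6 ways: HDL followed by P3C, P3C alone, HDL followed by CpG, CpG alone, HDL alone, or left as untreated controls. Macrophages were grown for 6 days with 40 ng/ml M-CSF from bone marrow of C57BL/6 mice aged 6 to 8 weeks, then given 2 mg/ml high-density lipoprotein (HDL) for 6 h, and then 100 nM CpG DNA, a TLR9 ligand, or 50 ng/ml P3C, a TLR2 ligand, for 4 h. A smaller experiment held WT macrophages with HDL followed by CpG, CpG, HDL, or no treatment. In the third experiment, carotid arteries of male mice of about 12 weeks, labelled ATF3-/- or WT, were electrically denuded, and 3 h later the animals received 20 mg/kg HDL or PBS intravenously. ATF3 is a stress-induced transcription factor, and the series asked whether it mediates the anti-inflammatory action of HDL. The Atf3 probe gave a higher signal in macrophages labelled ATF3-/- than in WT (log2 difference 0.70 to 1.48 over the 6 treatments); where that probe lies relative to the deleted sequence is not given in the sources used here, so it checks nothing about the deletion, and "labelled ATF3-/-" is used throughout. Whether arrays of one group stem from different mice, or from different dishes, is not stated, so p-values reflect only the spread between these arrays, which may be technical.

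The proteasome consists of a barrel-shaped core and a regulatory particle that caps it. Alpha subunits (Psma) form the outer rings of the core and beta subunits (Psmb) the inner rings, where Psmb5, Psmb6 and Psmb7 carry the proteolytic sites. The base of the regulatory particle holds a ring of ATPases (Psmc) that unfold substrates and the scaffold subunits Psmd1 and Psmd2. The ubiquitin receptor Psmd4 is counted here with the scaffold subunits. The lid of the regulatory particle (Psmd3, Psmd6 to Psmd8 and Psmd11 to Psmd14) contains the deubiquitinase Psmd14. Psmd5, Psmd9 and Psmd10 are chaperones that assist assembly of the base and are not part of the finished particle. In activated macrophages and under interferon, Psmb9, Psmb10 and Psmb8 can take the places of Psmb6, Psmb7 and Psmb5. Transcription of the constitutive subunits is raised together by the factor NRF1 (Nfe2l1), which acts with small MAF proteins, when proteasome activity falls short.

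Promoters are shown for the 2 genes with the largest HDL rise in untreated WT cells of the main experiment, Psmb6 and Psmd8, and for Psmd10, the gene with the most even ligand response, which was chosen after its values were seen. Sequences are RefSeq windows of build GRCm38.p6, from 250 bases before to 50 bases after the annotated start, written 5′ to 3′ on the gene's strand. Capitals mark TGANNNNGC, a loose letter pattern for the antioxidant response element bound by NRF1 and NRF2 with small MAF proteins. They do so in Psmb6 (chr11:70525107-70525406, plus strand) and, read on the other strand, in Psmd8 (chr7:29180624-29180923, minus strand). The Psmd8 match begins at position 277 of its window, after the annotated start. In Psmd10 (chrX:140956662-140956961, minus strand) capitals mark CCAAT, once on the gene's strand and 2 times, as ATTGG, on the other.
Psmb6: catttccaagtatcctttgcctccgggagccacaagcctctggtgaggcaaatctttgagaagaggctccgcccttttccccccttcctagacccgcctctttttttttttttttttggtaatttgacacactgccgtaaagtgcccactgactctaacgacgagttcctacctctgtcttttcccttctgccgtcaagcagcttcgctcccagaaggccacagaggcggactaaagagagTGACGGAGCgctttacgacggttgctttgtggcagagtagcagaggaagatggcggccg
Psmd8: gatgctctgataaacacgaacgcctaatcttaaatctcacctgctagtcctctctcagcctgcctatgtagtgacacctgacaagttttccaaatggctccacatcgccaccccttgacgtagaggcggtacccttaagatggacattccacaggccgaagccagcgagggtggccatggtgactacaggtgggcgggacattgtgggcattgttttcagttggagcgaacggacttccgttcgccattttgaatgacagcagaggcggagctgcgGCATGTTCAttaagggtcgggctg
Psmd10: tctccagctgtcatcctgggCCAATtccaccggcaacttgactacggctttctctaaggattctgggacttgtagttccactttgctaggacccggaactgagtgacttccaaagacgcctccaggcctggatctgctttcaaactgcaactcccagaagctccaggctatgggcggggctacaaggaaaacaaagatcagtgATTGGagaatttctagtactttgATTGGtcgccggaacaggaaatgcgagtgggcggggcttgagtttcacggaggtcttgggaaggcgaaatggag
Windows were found for 25 of the 31 detected genes. TGANNNNGC, on either strand, occurred in 15 of the 25 (60%) and in 45% of 27025 gene promoters of the same length, and CCAAT in 8 of the 25 (32%) against 41.1%. TGACTCAGC, a fully specified form of the same length that TGANNNNGC also matches, was in 0 of the 25 windows and in 0.503% of all promoters. These are letter matches without a test.

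Arrays were comparable in quality within the macrophage experiments, where 26.4% to 33.8% of probes were detected per array and 28 to 31 of the 31 genes. In artery the range was wider, 20.5% to 34% of probes. All 7 measured macrophage markers were detected in every macrophage group, and the smooth muscle genes Cnn1 and Myh11 and the endothelial gene Cdh5 in none; Acta2 was detected in both macrophage experiments, and summed smooth muscle signal in the main experiment was 570 to 1669 on arrays labelled ATF3-/- and 280 to 622 on WT arrays. 1 library stood apart: in WT CpG replicate 1 of the main experiment, the 31 genes had a median deviation from their means over all arrays of -0.10 on the log2 scale, against 0.11 and 0.13 in the other two CpG arrays. Calls lost or gained without this array are given with and without it.

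Some constitutive subunits rose in all 5 ligand comparisons, and most of them did with P3C in WT macrophages. With CpG in cells labelled ATF3-/- their share was near that of all genes. In the smaller experiment the number that rose depended on 1 control array. With P3C, 17 of 31 rose in WT macrophages (54.8%, where 21.5% of all 9213 genes rose) and 0 fell, where 28.4% of all genes fell. With CpG, 12 of 31 rose in WT cells (38.7%, against 22.1% of all genes) and 0 fell (28.9% of all genes). In macrophages labelled ATF3-/-, P3C raised 10 of 31 (32.3%, against 21.5%) and lowered 0 (28.2%), and CpG raised 8 (25.8%, against 20.6%) and lowered 2 (6.45%, against 31%). In the smaller WT experiment CpG raised 6 of 31 (19.4%, against 12.9% of 8946 genes) and lowered 0 (21.3%). The last count was 2 without control replicate 2, and 1 when the model held just the 2 groups. For CpG in cells labelled ATF3-/-, the 10 genes called were 5 without control replicate 2, 5 in a model of just the 2 groups and 6 with the chip as a term, and with P3C the 10 were 6 with the chip. The share of all genes called in these refits is not given here. The losses among the 31 genes therefore cannot be set against those among all genes. A gene is said to rise or fall where its adjusted p was under 0.05 in limma, with Benjamini-Hochberg adjustment over all genes tested in the experiment, and changes are log2 differences with their standard error (SE) and n = 3 arrays a group. The CpG and P3C comparisons of one label share their control arrays.

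The median log2 change of the 31 genes was above that of all genes in each of these 5 comparisons. It was 0.36 with P3C and 0.22 with CpG in WT cells, 0.23 and 0.19 in cells labelled ATF3-/-, and 0.21 with CpG in the smaller experiment, while the medians of all genes lay between -0.11 and -0.06. Without WT CpG replicate 1 the WT CpG median was 0.30. The median of the 31 genes minus that of all genes ranged from 0.28 to 0.42 as reported, from 0.39 to 0.59 when arrays were only scaled to one median, and from 0.18 to 0.38 with the authors' deposited normalised values. Scaling to one median shifted the median of all genes by -0.17 to -0.06 in these comparisons. It left 5 of 31 raised in WT with CpG (16.1%, against 11.1% of all genes) and 5 in WT with P3C (16.1%, against 11.7%). In the other three the share turned below that of all genes, at 1 of 31 with CpG (3.23%, against 9.89%) and 1 with P3C (3.23%, against 8.99%) in cells labelled ATF3-/-, and 2 with CpG in the smaller experiment (6.45%, against 8.24%). Leukocyte genes moved with the same comparisons, not all one way. Of the 7 macrophage markers, Cd14 rose in 5 and Itgam in 4 of the 5, Mrc1 fell in 5 and Csf1r in 2, Fcgr3 rose in 1 and fell in 1, and Adgre1 and Lyz2 passed in 0. Of the 2 neutrophil markers, S100a8 rose in 5 and S100a9 in 2. The summed signal of the neutrophil markers was 168 to 386 with CpG and 106 to 137 with P3C in cells labelled ATF3-/-, against 18.3 to 25.5 in controls, and 285 to 327 with CpG and 222 to 327 with P3C in WT cells, against 89.7 to 129 in controls. It was 331 to 560 with CpG in the smaller experiment, against 77.1 to 319 in controls. Their part in the result was not tested. In bulk RNA, fewer cells of a type and less RNA per cell cannot be told apart.

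**Figure D1:**
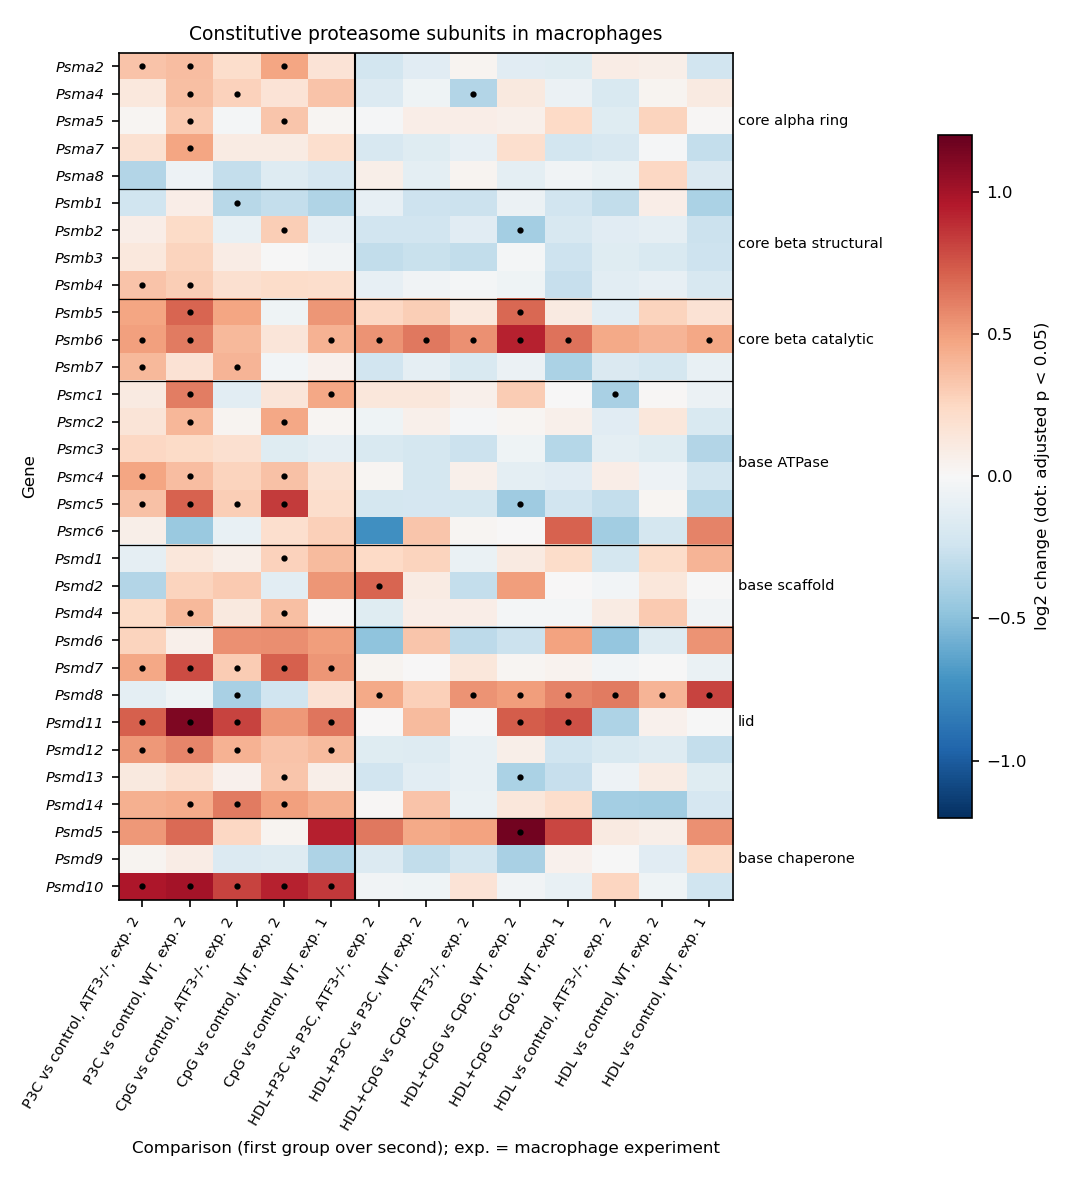
Log2 change of each detected constitutive subunit (rows, grouped by position in the particle) in the macrophage comparisons (columns); colour gives the size and direction and a dot an adjusted p under 0.05 in limma. The ligand columns are mostly on the raised side, with 17 dots for P3C in WT cells, while the HDL columns hold few dots, most of them in the rows of Psmb6 and Psmd8.

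The 2 genes raised in all 5 ligand comparisons were Psmd10 and Psmd7; among all 8626 genes tested in both macrophage experiments, 9.89% were raised in all 5. Psmd10, also called gankyrin, is a chaperone of the base. In WT macrophages it measured 11.57, 11.40 and 11.65 with CpG and 11.53, 11.56 and 11.74 with P3C, against 10.49, 10.72 and 10.65 in controls (log2 signal). Cells labelled ATF3-/- gave 11.19, 11.36 and 11.30 with CpG and 11.61, 11.46 and 11.25 with P3C, against 10.57, 10.41 and 10.44 in controls. Every stimulated array lay above every control array of its label. The changes were 0.92 ± 0.12 with CpG (1.89-fold, adjusted p = 1.45e-07) and 0.99 ± 0.12 with P3C (1.99-fold, adjusted p = 3.54e-08) in WT cells, and 0.81 ± 0.12 and 0.97 ± 0.12 in cells labelled ATF3-/-. In the smaller experiment Psmd10 was 11.03, 10.78 and 10.68 with CpG, against 10.21, 9.94 and 9.79 in controls (0.85 ± 0.15, adjusted p = 0.00118). A second Psmd10 probe gave 0.78 to 1.01 in the same comparisons and passed in all 5, and the call held in 30 of 30 fits that left out 1 array.

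Psmd7, the lid subunit that pairs with the deubiquitinase Psmd14, rose by 0.30 to 0.78. In WT cells it measured 11.87, 11.21 and 11.39 with CpG against 10.86, 10.80 and 10.66 in controls, and the groups did not overlap (0.72 ± 0.13, adjusted p = 1.79e-05). Its second probe gave 0.47 to 1.46 and passed in all but WT CpG, where adjusted p was 0.172. The Psmd7 call held in 23 of 30 fits that left out 1 array. It held in 3 of 5 comparisons in a model of just the groups compared, and in 3 of 5 with scaling to one median. The lid subunits Psmd11 and Psmd12 and the ATPase Psmc5 rose in 4 of the 5 comparisons, and 15.7% of all genes rose in 4 or more. Psmd11 had the largest single rise: 8.55, 8.56 and 8.22 with P3C in WT cells, against 7.13, 7.58 and 7.26 in controls (1.12 ± 0.26, adjusted p = 0.00051), with no overlap. Its second probe, like that of Psmd12, did not pass in the comparisons in which the brighter probe did. Psmc5 measured 11.13, 11.05 and 11.17 with CpG in WT cells and 10.44, 10.23 and 10.16 in controls, again without overlap (0.84 ± 0.12, adjusted p = 7.7e-07), though its second probe gave 0.18 there (adjusted p = 0.573).

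The rises were spread over the subcomplexes. With the label ATF3-/-, the largest after Psmd10 were those of Psmd11 (0.81 with CpG, 0.71 with P3C) and Psmd14 with CpG (0.62), and Psmd12 rose by 0.42 with CpG and 0.52 with P3C. In the smaller experiment CpG raised Psmd11 by 0.64, Psmd7 by 0.53, Psmc1 by 0.46 and Psmb6 by 0.42. With P3C in WT cells, 4 of 5 alpha subunits rose (Psma7 by 0.48, Psma2, Psma4 and Psma5 by 0.32 to 0.37), as did 1 of 4 structural beta subunits (Psmb4, 0.29) and 2 of 3 catalytic subunits. On the regulatory particle, 4 of 6 ATPases, 1 of 3 scaffold subunits, 4 of 7 lid subunits and 1 of 3 chaperones rose. The catalytic subunit Psmb5 rose by 0.70 ± 0.24 (adjusted p = 0.0148) and Psmb6 by 0.62 ± 0.17 (adjusted p = 0.00336), while Psmb7 changed by 0.17 (adjusted p = 0.388). With CpG in WT cells 0 of 3 catalytic subunits passed at adjusted p under 0.05 in limma, and 0 of 3 at an unadjusted p under 0.05. The same treatment raised 2 of 5 alpha, 1 of 4 structural beta, 3 of 6 ATPase, 2 of 3 scaffold, 3 of 7 lid and 1 of 3 chaperone genes, including the deubiquitinase Psmd14 (0.49 ± 0.19) and the alpha subunit Psma2 (0.47 ± 0.098). The catalytic subunit Psmb7 rose in cells labelled ATF3-/- with CpG (0.41 ± 0.16, adjusted p = 0.0297) and with P3C (0.39 ± 0.16, adjusted p = 0.041).

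The catalytic result with CpG rested on the array that stood apart. Psmb6, the caspase-like site, measured 10.98, 12.03 and 12.07 in WT CpG arrays, against 11.59, 11.64 and 11.42 in controls; the low value is that of replicate 1, and the other two lie above all controls. Without that array Psmb6 rose by 0.50 (adjusted p = 0.00115), 14 rather than 12 genes rose, and Psma5, Psmc4, Psmd1 and Psmd14 no longer passed. Within the chip that held this array and 1 control, the median change of the 31 genes was 0.03 (16 of 31 above 0). Within the chip that held WT P3C and control arrays it was 0.33 (28 of 31 above 0), and within the 2 such chips of the smaller experiment it was 0.19 and 0.23.

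Some subunits went the other way with CpG. In WT cells the 4 lowest were Psmb1, Psmd8, Psmd9 and Psma8, of which 0 passed. Psmb1, a structural beta subunit, measured 10.64, 10.86 and 11.20 with CpG and 11.36, 11.04 and 11.15 in controls, and the groups overlapped (-0.28, adjusted p = 0.0741). Psmd8 measured 11.47, 11.18 and 11.30 with CpG, against 11.61, 11.59 and 11.46 in controls, with 1 CpG array within the range of controls (-0.24, adjusted p = 0.14). The weak signals of Psmd9 (6.16, 5.89 and 6.19 with CpG, 6.52, 6.02 and 6.16 in controls) and Psma8 (5.02, 5.21 and 4.89 with CpG, 5.36, 5.09 and 5.12 in controls) overlapped as well. Both Psmb1 (-0.33 ± 0.13, adjusted p = 0.037) and Psmd8 (-0.39 ± 0.13, adjusted p = 0.0143) fell with CpG in cells labelled ATF3-/-.

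**Figure D2:**
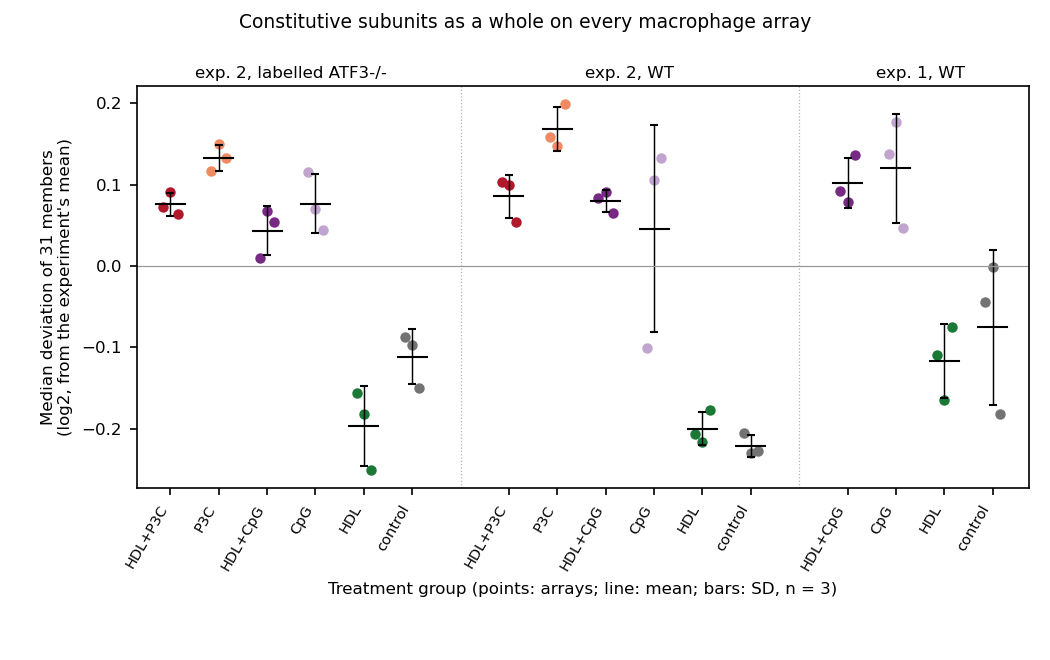
Median log2 deviation of the detected constitutive subunits from their means over all arrays of an experiment, 1 point per array, by group, with the group mean and SD (n = 3). In the main experiment all arrays given a ligand lie above 0 except WT CpG replicate 1, at -0.10, and all control and HDL arrays lie below 0.

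In the model reported here HDL changed few constitutive subunits, and most of the calls were of Psmb6 and the lid subunit Psmd8. When arrays were weighted in the model, more subunits were called with HDL in the smaller experiment, as listed in the section on processing. Psmd8 rose in 7 and Psmb6 in 6 of the 8 comparisons of HDL-treated macrophages with cells under the same ligand but no HDL. These comparisons share no arrays. Among the 31 genes, 1 rose in 7 or more and 2 in 6 or more, against 2.64% and 4.07% of all 8626 genes. So few genes cannot be set apart from these shares. For both genes the HDL arrays lay above all arrays without HDL in 8 of 8 comparisons. The share of all genes for which this held is not given here. Psmd1, which passed in 0 of the 8, had groups without overlap in 6. Of the 31 genes, 20 (52.1% of all genes) passed in 0 of the 8 comparisons, 6 (24.7%) rose in at least 1 and 5 (24.7%) fell in at least 1. The median log2 change of the 31 genes with HDL ran from -0.14 to 0.02, against -0.05 to 0.02 for all genes. Marker genes of other cells moved with HDL too. Of 4 endothelial genes Vwf rose in the same 8 comparisons, while Cdh5 was detected in 0 groups. Their summed signal was 394 to 419 with HDL, against 123 to 161 in controls labelled ATF3-/-, and 533 to 648 with HDL, against 243 to 286 in WT controls. The summed signal of the 4 smooth muscle genes, of which Acta2 alone was detected in these groups, was 1325 to 1669 with HDL, against 578 to 889 in controls labelled ATF3-/-, and 401 to 514 with HDL, against 285 to 324 in WT controls. In the smaller experiment the endothelial sum was 130 to 193 with HDL, against 51.9 to 82.2 in controls, while the smooth muscle sum, to which Tagln contributed as well, overlapped at 5815 to 6608 with HDL and 4294 to 7124 in controls. The part of these genes' source cells in the HDL results was not tested.

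HDL alone raised 1 of 31 genes in WT cells (8.38% of all genes rose) and lowered 0 (6.91%). HDL before CpG raised 5 and lowered 3 (9.42% and 12%), and HDL before P3C raised 1 and lowered 0 (9.57% and 9.1%). In cells labelled ATF3-/-, HDL alone raised 1 and lowered 1 (13.4% and 9.89%), HDL before CpG raised 2 and lowered 1 (10.8% and 8.82%), and HDL before P3C raised 3 and lowered 0 (9.22% and 9.31%). In the smaller experiment HDL alone raised 2 and lowered 0 (3.23% and 4.86%), and HDL before CpG raised 3 and lowered 0 (4.68% and 4.64%). In 5 of the 8 comparisons the share of the 31 genes that rose was near or below that of all genes.

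Psmb6 with HDL was measured as follows. In cells labelled ATF3-/- it was 11.99, 12.01 and 12.15 with HDL alone, against 11.67, 11.57 and 11.55 in controls (0.45 ± 0.17, adjusted p = 0.0551). It was 12.51, 12.71 and 12.39 with HDL and CpG, against 12.26, 11.96 and 11.74 with CpG (0.55 ± 0.17, adjusted p = 0.0209), and 12.55, 12.63 and 12.70 with HDL and P3C, against 11.95, 12.16 and 12.15 with P3C (0.54 ± 0.17, adjusted p = 0.0251). In all 3 pairs the lowest HDL array was above the highest array without HDL. In WT cells Psmb6 was 12.10, 11.90 and 11.88 with HDL, against 11.59, 11.64 and 11.42 in controls (0.41 ± 0.17, adjusted p = 0.118). It was 12.67, 12.56 and 12.62 with HDL and CpG, against 10.98, 12.03 and 12.07 with CpG (0.92 ± 0.17, adjusted p = 0.000162), and without the low CpG array the change was 0.57 (adjusted p = 0.00108). With HDL and P3C it was 12.77, 12.75 and 12.88, against 12.12, 12.16 and 12.24 with P3C (0.63 ± 0.17, adjusted p = 0.00881). In the WT pairs, too, the lowest HDL array was above the highest array without HDL. In the smaller experiment Psmb6 was 11.20, 11.39 and 11.43 with HDL, against 10.96, 10.83 and 10.82 in controls (0.47 ± 0.13, adjusted p = 0.0468), and 12.04, 11.88 and 11.88 with HDL and CpG, against 11.33, 11.31 and 11.23 with CpG (0.65 ± 0.13, adjusted p = 0.00717). A second Psmb6 probe rose by 0.27 to 0.86 and passed in 7 of 8 comparisons.

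Psmd8, a lid subunit, was raised by HDL with a similar size, from 0.28 to 0.81. In cells labelled ATF3-/- it was 12.33, 11.98 and 12.58 with HDL, against 11.67, 11.76 and 11.59 in controls (0.62 ± 0.13, adjusted p = 0.000654). It was 11.78, 11.97 and 11.72 with HDL and CpG, against 11.07, 11.29 and 11.48 with CpG (0.54 ± 0.13, adjusted p = 0.0033), and 12.12, 11.95 and 11.98 with HDL and P3C, against 11.37, 11.77 and 11.54 with P3C (0.46 ± 0.13, adjusted p = 0.0141). Under each treatment of these cells the HDL arrays lay above the arrays without HDL. In WT cells it was 11.93, 11.98 and 11.97 with HDL, against 11.61, 11.59 and 11.46 in controls (0.41 ± 0.13, adjusted p = 0.0322). It was 11.74, 11.98 and 11.74 with HDL and CpG, against 11.47, 11.18 and 11.30 with CpG (0.50 ± 0.13, adjusted p = 0.00609). With HDL and P3C it was 11.85, 11.76 and 11.74, against 11.52, 11.66 and 11.32 with P3C, and this change of 0.28 ± 0.13 did not pass (adjusted p = 0.15). In the smaller experiment the values were 10.97, 10.98 and 11.17 with HDL, against 10.27, 10.12 and 10.31 in controls (0.81 ± 0.13, adjusted p = 0.00242), and 10.90, 11.01 and 11.08 with HDL and CpG, against 10.43, 10.48 and 10.30 with CpG (0.59 ± 0.13, adjusted p = 0.0141). Psmd8 had 1 detected probe.

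These calls depended more on single arrays than those of Psmd10. Leaving out 1 array at a time kept the call in 24 of 36 fits for Psmb6 and in 31 of 42 for Psmd8; with HDL alone, Psmd8 was lost in 6 of 6 such fits in WT cells of the main experiment, and Psmb6 in 6 of 6 in the smaller experiment. With the chip as a term in the model, 5 of the 6 Psmb6 calls and 7 of the 7 Psmd8 calls held, and with scaling to one median 3 of 6 and 3 of 7. The changes stayed above 0 in these fits.

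**Figure D3:**
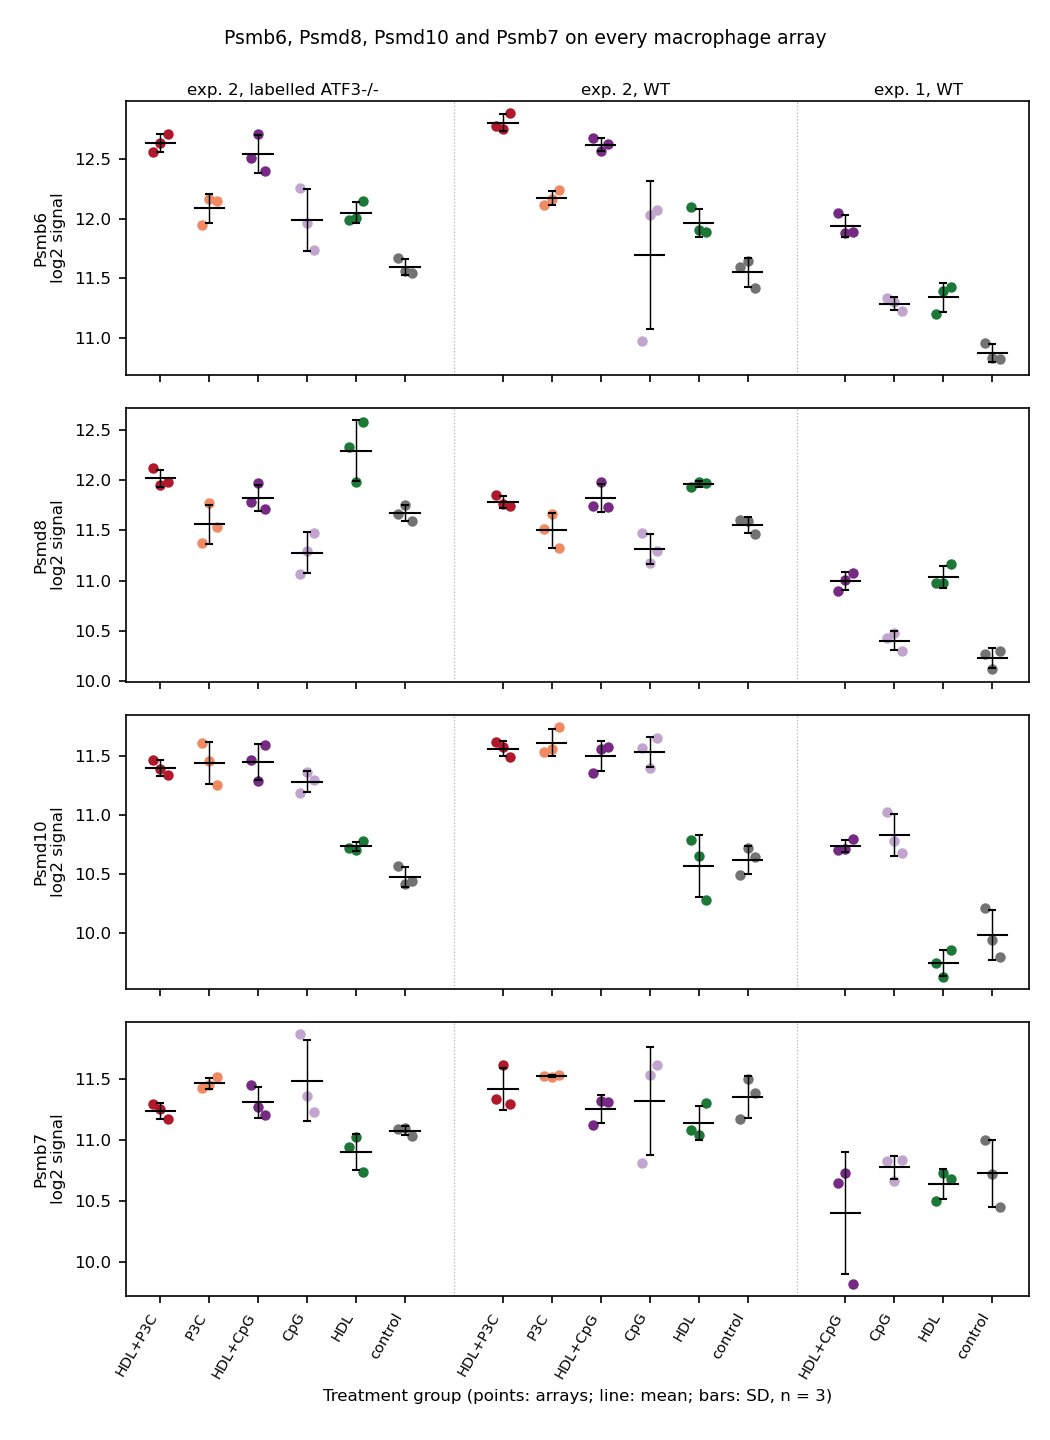
Log2 signal of Psmb6, Psmd8, Psmd10 and Psmb7 (panels from top to bottom) on each macrophage array, by treatment and label; points are arrays, lines group means and bars SD (n = 3). Psmb6 and Psmd8 are higher with HDL than without it in each pair of groups, and Psmd10 is higher with CpG or P3C than in controls.

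Of the other catalytic subunits, Psmb5 passed in 1 and Psmb7 in 0 of the 8 HDL comparisons. Psmb5, the chymotrypsin-like site, rose with HDL before CpG in WT cells (0.69 ± 0.24, adjusted p = 0.036), where the change was 0.36 and did not pass without WT CpG replicate 1, and it changed by 0.27 (adjusted p = 0.553) with HDL alone and 0.30 (adjusted p = 0.433) with HDL before P3C. With HDL alone the change of Psmb7, the trypsin-like site, was -0.17 in cells labelled ATF3-/- (95% interval -0.50 to 0.16) and -0.21 in WT cells (95% interval -0.54 to 0.11).

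Further changes with HDL before a ligand were scattered. In WT cells with CpG, Psmd11 rose by 0.73 ± 0.26 (adjusted p = 0.0394), at 8.70, 8.56 and 8.45 against 7.88, 8.06 and 7.58, and in the smaller experiment by 0.76 ± 0.21 (adjusted p = 0.0387), at 8.20, 8.66 and 8.35 against 7.48, 7.51 and 7.94. The groups did not overlap in either experiment. The base chaperone Psmd5 was 7.86, 7.68 and 7.70 with HDL and CpG in WT cells, against 5.21, 7.30 and 7.27 with CpG (1.15 ± 0.31, adjusted p = 0.00613). Its lowest value is again that of replicate 1, where it was not detected, and without that array neither Psmd5 (0.46, adjusted p = 0.0824) nor Psmd11 (adjusted p = 0.0641) passed, which left 2 genes raised and 3 lowered. The 3 that fell were the lid subunit Psmd13 (-0.38 ± 0.091, adjusted p = 0.0023), the structural beta subunit Psmb2 (-0.41 ± 0.11, adjusted p = 0.00645) and the ATPase Psmc5 (-0.43 ± 0.12, adjusted p = 0.00923), and they fell without that array as well. The second Psmc5 probe, detected on all 36 arrays, gave 0.28 (adjusted p = 0.474), the other direction. The ATPase Psmc1 fell in cells labelled ATF3-/- with HDL alone (-0.39 ± 0.12, adjusted p = 0.0165) and the alpha subunit Psma4 with HDL before CpG (-0.35 ± 0.12, adjusted p = 0.0288). The scaffold subunit Psmd2 rose with HDL before P3C (0.70 ± 0.23, adjusted p = 0.0303), with detection on 1 of the 3 P3C arrays.

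For the remaining subcomplexes, the genes with the largest HDL change in untreated WT cells did not pass. The ubiquitin receptor Psmd4 was 11.87, 12.07 and 11.93 with HDL, against 11.68, 11.48 and 11.78 in controls (0.31 ± 0.11, adjusted p = 0.0681), and the scaffold subunit Psmd1 was 13.00, 12.77 and 12.99 against 12.68, 12.67 and 12.74 (0.22 ± 0.10, adjusted p = 0.162). Among alpha subunits Psma5 was 12.83, 12.89 and 12.89 with HDL and 12.54, 12.61 and 12.66 in controls (0.27 ± 0.11, adjusted p = 0.0981). In these 3 genes the HDL arrays lay above all controls, in Psmd1 by a narrow margin, yet adjustment over all genes left them above the threshold. The deubiquitinase Psmd14 was 9.69, 8.97 and 9.09 with HDL and 9.72, 9.52 and 9.75 in controls (-0.42 ± 0.19, adjusted p = 0.154), with 1 HDL array among the controls. The structural beta subunits Psmb3 (11.18, 11.09 and 11.24 with HDL, 11.33, 11.42 and 11.31 in controls) and Psmb2 (12.29, 12.28 and 12.37 with HDL, 12.55, 12.45 and 12.26 in controls) differed by -0.19 and -0.11. The ATPases Psmc6 and Psmc3, the alpha subunit Psma8 and the chaperones Psmd5 and Psmd9 overlapped between HDL and control arrays, with changes from -0.21 to 0.25.

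The ligand comparisons share the control or ligand arrays with the HDL comparisons, so the HDL change under a ligand was set against that without one in the model. The test of whether the HDL change differed under a ligand passed for 1 gene in 1 of 5 such comparisons: for Psmd13 in WT cells with CpG, the HDL change with CpG minus that without it was -0.48 ± 0.13 (adjusted p = 0.0245), a difference below 0 that passed for 2.63% of all genes, while one above 0 passed for 1.93%. This call was lost with the chip as a term (-0.54, adjusted p = 0.0549), in a model of just the groups compared (adjusted p = 0.197) and with scaling to one median (-0.46). Of the other 4, limma called 0 of 31 in WT cells with P3C (3.9% of all genes either way, 1 of 31 at an unadjusted p under 0.05). Shares of all genes here are at adjusted p under 0.05, and none is given at the unadjusted threshold. It called 0 in cells labelled ATF3-/- with CpG (4.9%, 1 unadjusted), 0 in those cells with P3C (5.1%, 4 unadjusted) and 0 in the smaller experiment (1.13%, 1 unadjusted). The smallest p values among these belonged to Psmd1 (0.45, adjusted p = 0.0627), Psmc1 (0.52, adjusted p = 0.0699) and Psmd2 (0.74, adjusted p = 0.216), all in cells labelled ATF3-/- with P3C. In WT cells with P3C they belonged to Psmd14 (0.76, adjusted p = 0.12), Psmb1 (-0.33) and Psmd13 (-0.22). With CpG they belonged to Psmc1 (0.45, adjusted p = 0.146), Psma5 (0.22) and Psmd14 (0.33) in cells labelled ATF3-/-, and to Psmd11 (0.76, adjusted p = 0.438), Psmd8 (-0.22) and Psmc2 (0.25) in the smaller experiment.

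Between 0 and 3 of the 31 constitutive subunits differed between the labels under any 1 treatment. In untreated cells labelled ATF3-/-, 3 of 31 were higher than in WT (6.45% of all genes) and 0 lower (6.76%). They were the ubiquitin receptor Psmd4 (0.47 ± 0.11, adjusted p = 0.00427), the ATPase Psmc1 (0.44 ± 0.12, adjusted p = 0.0108) and the lid subunit Psmd13 (0.31 ± 0.091, adjusted p = 0.0173). With HDL alone 0 were higher (5.09%) and 1 was lower (5.44%), namely Psmd1, at 12.44, 12.44 and 12.44 on arrays labelled ATF3-/- and 13.00, 12.77 and 12.99 on WT arrays (-0.48 ± 0.10, adjusted p = 0.00129). The groups did not overlap. Psmd1 was also lower with HDL and CpG (-0.45 ± 0.10, adjusted p = 0.0024) and with HDL and P3C (-0.32 ± 0.10, adjusted p = 0.0281). With HDL and CpG, 1 of 31 was higher, again Psmd13 (0.33 ± 0.091, adjusted p = 0.014; 5.92% of all genes), and 1 lower (6.23%). With HDL and P3C, 0 were higher (6.94%) and 2 lower (8.17%), Psmd1 and Psmd11 (-0.74 ± 0.26, adjusted p = 0.0479). Between the labels limma called 0 of 31 under CpG, where 22.8% of all genes were called either way, and 0 under P3C (12.9%). These shares are at adjusted p under 0.05. At an unadjusted p under 0.05 in limma there were 7 of 31 under CpG and 4 under P3C. No share of all genes is given at that threshold. The smallest p values under CpG were those of Psmc3 (0.36, adjusted p = 0.0618), Psmd1 (-0.26, adjusted p = 0.0652) and Psmd2 (0.54, adjusted p = 0.0928). Under P3C they were those of Psmd1 (-0.30, adjusted p = 0.0514), Psmd4 (0.31, adjusted p = 0.0752) and Psmd13 (0.24, adjusted p = 0.0847), so Psmd1 was below WT in these groups as well without passing. Without WT CpG replicate 1, 1 gene was lower under CpG.

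Whether the responses differ between the labels was tested directly. Shares of all genes below are at adjusted p under 0.05, and none is given at the unadjusted threshold. In limma 0 of 31 genes differed in the response to CpG (3.12% of all genes, 6 of 31 at an unadjusted p under 0.05), to P3C (2.2%, 2 unadjusted), to HDL alone (1.24%, 3 unadjusted), to HDL before CpG (0.499%, 3 unadjusted) and to HDL before P3C (0.412%, 1 unadjusted). The smallest p with CpG was that of Psmc5, whose response in cells labelled ATF3-/- minus that in WT cells was -0.54 ± 0.17 (adjusted p = 0.08), followed by Psmc2 (-0.43, adjusted p = 0.11) and Psmb2 (-0.38, adjusted p = 0.203). With P3C it was that of Psmc1 (-0.51, adjusted p = 0.135), with HDL alone that of Psmd1 (-0.43, adjusted p = 0.204), with HDL before CpG that of Psma4 (-0.47, adjusted p = 0.233) and with HDL before P3C that of Psmc6 (-1.06, adjusted p = 0.534). For Psmb6 the HDL response in cells labelled ATF3-/- minus that in WT cells was 0.04 without ligand (95% interval -0.46 to 0.55), and for Psmd8 it was 0.21 (95% interval -0.18 to 0.60). For Psmd10 the CpG response differed by -0.11 (95% interval -0.46 to 0.24) and the P3C response by -0.02 (95% interval -0.37 to 0.32). The number of arrays limits the precision of these intervals.

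Genes that work with the constitutive subunits were followed as a list. For the falls below, the share of all genes that fell in as many comparisons is not given here. The immunoproteasome subunit Psmb9, which replaces Psmb6, fell in 7 of 8 HDL comparisons (-0.84 to -0.39 over all 8) and in all 5 ligand comparisons (-1.03 to -0.54). Without WT CpG replicate 1 the fall with HDL before CpG in WT cells did not pass (-0.38, adjusted p = 0.0518). In cells labelled ATF3-/- it was 10.33, 10.39 and 10.53 with HDL, against 11.24, 11.02 and 11.15 in controls (-0.72 ± 0.13, adjusted p = 5.75e-05), and in WT cells 9.66, 9.51 and 9.65 with HDL, against 10.13, 10.45 and 10.36 in controls (-0.71 ± 0.13, adjusted p = 0.00012). HDL arrays were below all controls in both. Psmb10, which replaces Psmb7, fell in 6 of 8 HDL comparisons, at 10.58, 10.36 and 10.64 with HDL against 11.48, 11.25 and 11.66 in controls labelled ATF3-/- (-0.94 ± 0.12, adjusted p = 8.07e-07). In WT cells it was 10.01, 9.96 and 9.89 with HDL, against 10.56, 10.56 and 10.17 in controls (-0.48 ± 0.12, adjusted p = 0.00607). In the main experiment it rose in WT cells with CpG (0.69 ± 0.12) and P3C (0.99 ± 0.12), while CpG in the smaller experiment gave 0.05 (adjusted p = 0.886), and it passed in 0 of the 2 ligand comparisons in cells labelled ATF3-/- (0.21 and 0.16). Psmb8, which replaces Psmb5, passed in 0 of the HDL and ligand comparisons. Psmb9 was higher in cells labelled ATF3-/- than in WT under all 6 treatments (0.45 to 0.86), and Psmb10 in controls, CpG and HDL (1.03, 0.54 and 0.58).

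The activator subunit Psme3 rose with ligands in the main experiment by 1.05 to 1.29 in all 4 comparisons, and Psme2, part of the interferon-inducible activator, in 3 of the 4 (1.09 to 1.35). Psme1, its partner, fell in 5 of 8 HDL comparisons. The assembly factor Psmg3 rose in those 4 ligand comparisons and fell in 4 of 8 with HDL, while Pomp, the maturation factor of the core, passed in 1 of 8 with HDL (cells labelled ATF3-/- with P3C, -0.37 ± 0.11, adjusted p = 0.0133) and 0 of 5 with ligands. The deubiquitinase Uchl5, which docks at the proteasome, fell in all 5 ligand comparisons (-0.79 to -0.63). Nfe2l1 rose in 7 of 8 HDL comparisons (0.29 to 0.79 over all 8) and in all 5 ligand comparisons (0.59 to 0.97), the small MAF gene Mafg in 8 of 8 with HDL (0.71 to 1.10), and Sqstm1, a ubiquitin-binding autophagy receptor, in 8 of 8 with HDL (0.75 to 1.60). A second Mafg probe gave -0.02 in the HDL comparison of the smaller experiment. Of all 8626 genes tested in both macrophage experiments, 2.64% rose in 7 or more of the 8 HDL comparisons. With ligands, 15.7% rose in 4 or more of the 5 comparisons and 9.89% in all 5.

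**Figure D4:**
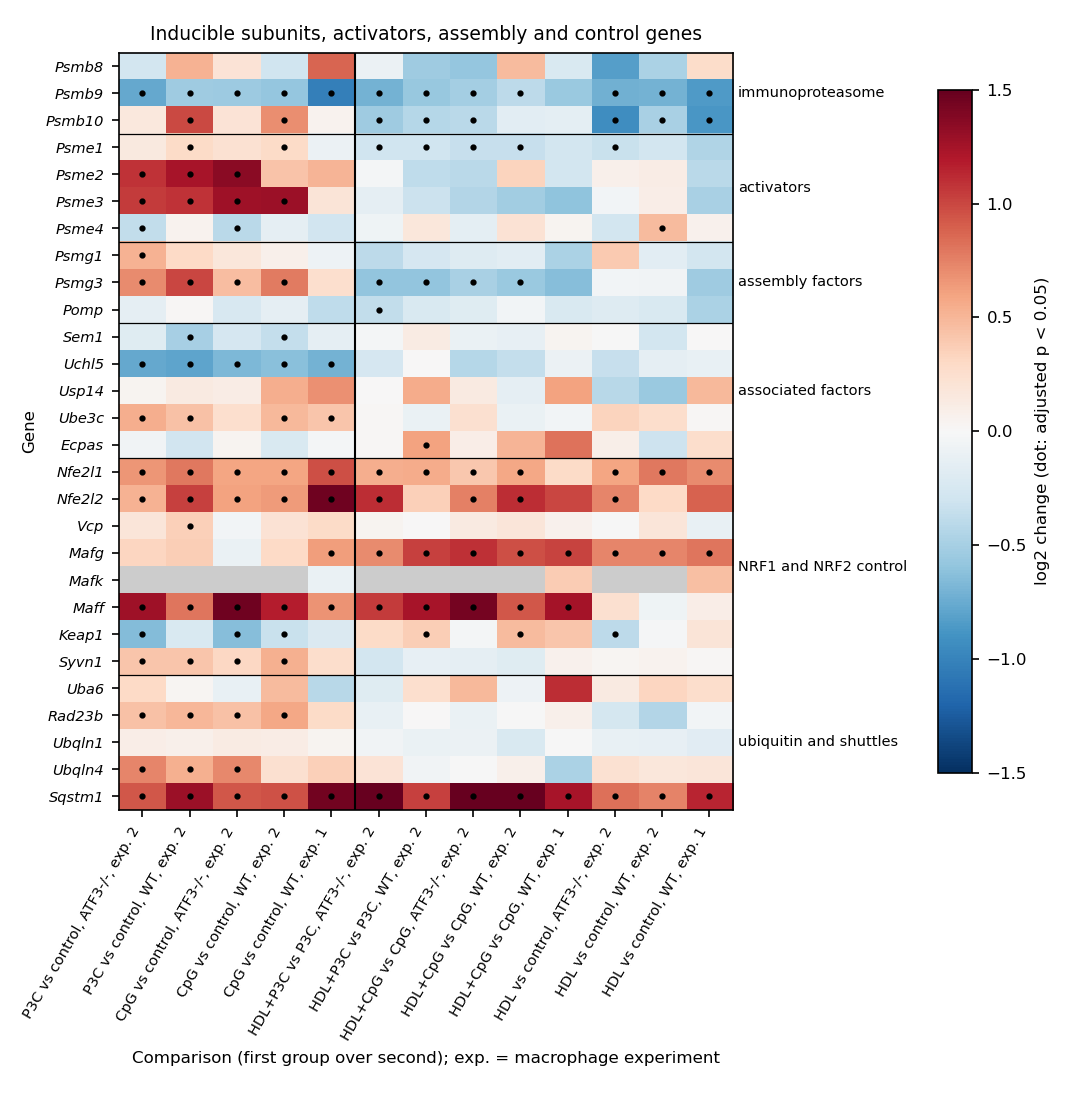
Log2 change of immunoproteasome subunits, activators, assembly and associated factors, NRF1 and NRF2 pathway genes and ubiquitin shuttles (rows) in the macrophage comparisons (columns), drawn as for the constitutive subunits, with colours capped at the ends of the scale. Psmb9 is on the lowered side in every HDL and ligand column, and Mafg and Sqstm1 are raised in all 8 HDL columns.

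In injured artery limma called 0 of 27 constitutive subunits in each of 5 comparisons, and 0 of 9073 genes (0%) in all. At an unadjusted p under 0.05 it also called 0 of 27 in each. No share of all genes is given at that threshold. With HDL against PBS, 21 of 27 changes were below 0 in arteries labelled ATF3-/- (median -0.18, all genes -0.02) and 22 of 27 in WT arteries (median -0.19, all genes -0.11). The smallest p in WT arteries was that of the ATPase Psmc4, at 10.12, 10.38 and 10.20 with HDL, against 10.59, 10.63 and 10.70 with PBS (-0.40 ± 0.19, adjusted p = 0.227), followed by Psmd13 (-0.31 ± 0.18) and Psmd10 (0.32 ± 0.19). In arteries labelled ATF3-/- Psmc4 was 10.13, 10.47 and 10.26 with HDL and 10.89, 10.42 and 10.49 with PBS. The WT groups did not overlap and those labelled ATF3-/- did. In arteries labelled ATF3-/- the smallest p values were those of Psmd12 (-0.48 ± 0.24), Psmb2 (-0.41 ± 0.22) and Psmb5 (-0.38 ± 0.20). Between the labels the smallest p belonged to Psmd13 with HDL (0.36, adjusted p = 0.606) and to Psmb5 with PBS (0.42, adjusted p = 0.999).

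The subunits that rose with HDL in macrophages did not pass in artery. Psmb6 was 9.67, 10.00 and 9.99 with HDL, against 10.09, 9.83 and 9.58 with PBS in arteries labelled ATF3-/- (0.05, 95% interval -0.45 to 0.56), and 9.67, 9.94 and 9.36 with HDL, against 9.67, 9.97 and 9.82 with PBS in WT arteries (-0.16, 95% interval -0.67 to 0.35). Psmd8 was 9.61, 9.40 and 9.61 with HDL, against 9.94, 9.74 and 9.78 with PBS in arteries labelled ATF3-/-, and 9.33, 9.48 and 9.45 with HDL, against 9.58, 9.50 and 9.63 with PBS in WT arteries. For Psmb6 the groups overlapped, and for Psmd8 the HDL arrays lay below the PBS arrays under both labels, without passing. In WT arteries the groups did not overlap, in either direction, for 14.8% of the 27 genes and 16.3% of all genes. In arteries labelled ATF3-/- these shares were 18.5% and 9.48%. Psmb5 was 7.35, 7.43 and 7.46 with HDL, against 7.85, 7.85 and 7.69 with PBS in arteries labelled ATF3-/-, and 7.84, 7.36 and 7.55 with HDL, against 7.13, 7.39 and 7.61 with PBS in WT arteries. The difference between the labels in its HDL response was -0.59 ± 0.28 (adjusted p = 0.761). Psmb7 changed by -0.41 (95% interval -1.0 to 0.19) in arteries labelled ATF3-/- and -0.33 (95% interval -0.93 to 0.27) in WT arteries.

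The artery samples differed in composition and quality. Summed smooth muscle marker signal (Acta2, Myh11, Tagln and Cnn1) ran from 19922 to 30266 with HDL and 17271 to 30139 with PBS in arteries labelled ATF3-/-, and from 3907 to 33107 with HDL and 20567 to 43147 with PBS in WT arteries. The 7 macrophage markers summed to 4903 to 9702 with HDL and 2223 to 11009 with PBS in arteries labelled ATF3-/-, and to 7883 to 17672 with HDL and 3787 to 9748 with PBS in WT arteries. The 4 endothelial markers summed to 1265 to 2432 with HDL and 871 to 3947 with PBS in arteries labelled ATF3-/-, and to 539 to 1760 with HDL and 1313 to 3318 with PBS in WT arteries. In WT arteries Csf1r (1.92), Itgam (1.63) and the T cell gene Cd3g (2.15) were higher with HDL. The endothelial genes Tek (-2.65) and Pecam1 (-1.91) and the smooth muscle genes Myh11 (-3.15), Tagln (-2.27) and Acta2 (-1.72) were lower. Adjusted p in limma ran from 0.19 to 0.198 for these genes, so none passed. Mrc1 (0.14) and Vwf (-0.34) changed less. Myh11 was 6.38 and 5.95 in WT HDL replicates 1 and 3, and 11.58 in replicate 2. In PBS replicate 2 labelled ATF3-/- the skeletal muscle gene Acta1 was 12.47, against 4.39 and 4.85 in replicates 1 and 3. The part of these cells in the result was not tested. WT HDL replicates 1 and 3 had the lowest detection, 20.5% and 24.5% of probes, and without them the median of the 27 genes in WT arteries was -0.02. The transcript Erdr1, which separated the labels in the main macrophage experiment by -7.29 to -6.80, had the level of the other label in WT PBS replicate 3 and in replicate 3 of the HDL arteries labelled ATF3-/-. Without these arrays the medians were -0.30 in arteries labelled ATF3-/- and -0.16 in WT arteries, and 0 genes passed in each of the 5 comparisons. Within chips the median with HDL was -0.31 and 0.04 in arteries labelled ATF3-/- and -0.31 and -0.17 in WT arteries. Scaling to one median or using the authors' deposited values, which for artery are not normalised, called 22 of 27 genes lower with HDL in WT arteries (81.5%), where 45.9% and 47.8% of all genes were called lower too and the median of all genes itself shifted by -0.97 and -0.53.

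**Figure D5:**
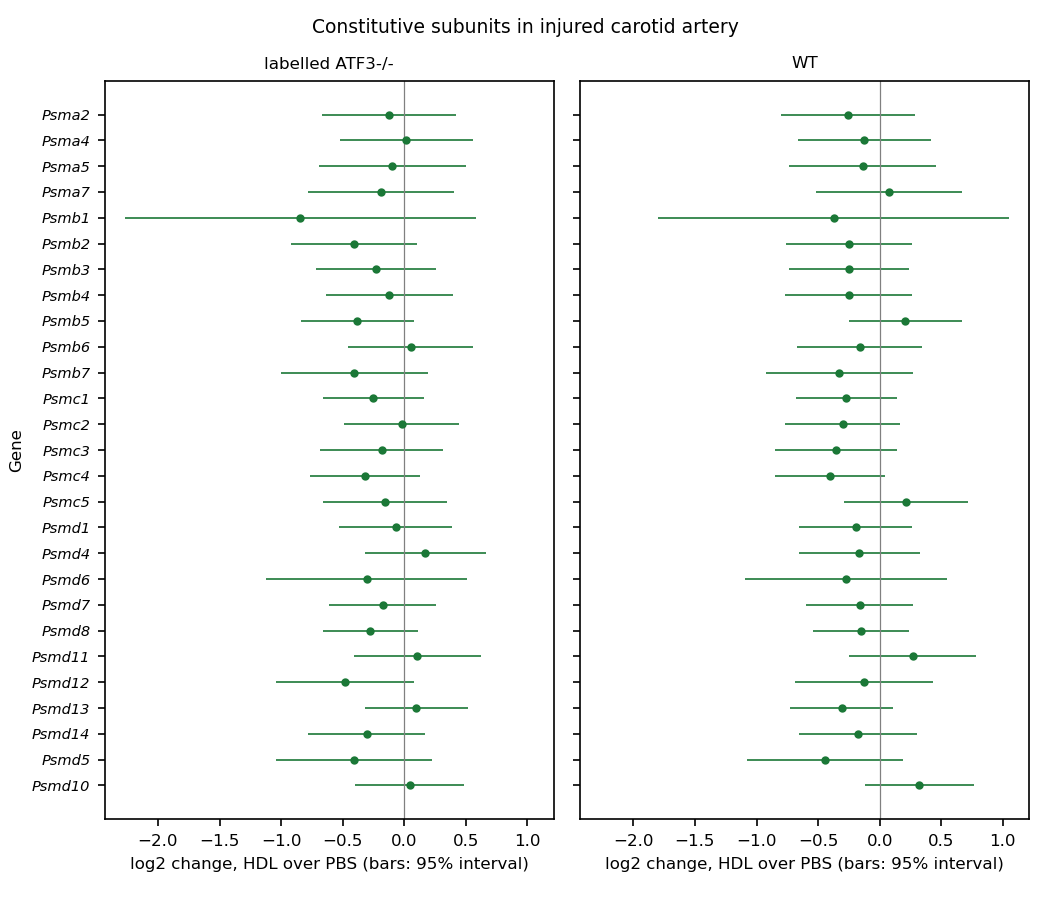
Log2 change with HDL against PBS for the 27 constitutive subunits detected in injured artery, labelled ATF3-/- and WT, with 95% intervals. Most points lie below 0, and no gene passed the adjusted threshold.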

How the data were processed

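RNA of 60 samples was measured on Illumina mouse arrays, in a smaller macrophage experiment (12 arrays on 3 chips), a main one (36 arrays on 6 chips) and an artery experiment (12 arrays on 2 chips). Per the file headers, the deposited scanner tables give each probe's mean signal intensity on a linear scale, without normalisation. Per the file headers they also give a detection p-value per probe and array. The authors' deposited value matrix holds normalised linear intensities for macrophages, and log2 values of the un-normalised signal for artery. Partek is named in the submitters' processing notes, and its steps and the scanner software are not given in the sources used here.

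Of 45281 probes, 34885 had 1 gene symbol in the platform annotation, 18 several and 10378 none, which gave 19057 genes; probe positions are not given here. The probe with the highest mean signal over both macrophage experiments stood for its gene. Each experiment was corrected for background with normexp from the detection p-values (offset 16), quantile normalised and taken to log2 with limma 3.58.1 in R 4.3.3. Tested were genes whose probe was detected (p below 0.01) on 3 or more arrays: 8946 in the smaller experiment, 9213 in the main one and 9073 in artery. One model per experiment, with a mean for each group and moderation by eBayes, gave 34 comparisons, with Benjamini-Hochberg adjustment over the genes tested in each. The scripts were tested on simulated data with 200 changed genes.

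The members and the gene lists were chosen with earlier results of these data known. Named were up to 5 of the largest rises and falls past the threshold in a comparison, or the smallest p values where none passed, always Psmb5, Psmb6 and Psmb7, and 2 genes of each companion list beside Psmb8, Psmb9, Psmb10, Pomp and Nfe2l1; a few others are named to describe a group. No 2 arrays held identical values. Replicate numbers follow the order of the records. Alternatives were the background correction, the normalisation, the authors' values, no detection filter, the next brightest probe, chip as a fixed or random effect, array weights, a model of only the groups compared, and leaving out each array. Leaving out artery arrays for their Erdr1 level or for low detection was chosen after seeing the data. Figures were drawn with matplotlib 3.10.9. The number of arrays limits the precision.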

Additional observations from a re-analysis of the deposited data

Results flagged for a closer look

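The following responses differed from one another when the difference itself was tested in limma, as changes in log2 signal with their SE, and no cause was tested. Among the constitutive subunits it was Psmd13, whose HDL response in WT macrophages of the main experiment, with CpG minus without it, was -0.48 ± 0.13 (adjusted p = 0.0245). It did not pass with chip as a fixed effect, with only the groups compared or with median scaling, each of which called 0 members here.

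The other differences concerned companion genes. The estimated HDL response of Maff, a small MAF gene, was greater under a ligand than without one. With CpG the difference was 1.14 ± 0.21 (adjusted p = 0.0246) in the smaller experiment and 1.19 ± 0.28 (adjusted p = 0.00815) in cells labelled ATF3-/-. In WT cells of the main experiment it was 1.30 ± 0.28 (adjusted p = 0.00406) with P3C and 0.995 ± 0.28 (adjusted p = 0.0323) with CpG. For that CpG difference, adjusted p was 0.0777 without CpG replicate 1 and 0.387 with chip as a fixed effect. Without normexp correction the difference itself was 0.45 and still passed (adjusted p = 0.0463 in limma). In the smaller experiment Maff was detected on 0 of 3 control and 0 of 3 HDL arrays (means 4.32 and 4.43). Its HDL response without a ligand there was at background, so a smaller response cannot be told from an unmeasured one. In cells labelled ATF3-/-, the HDL response with P3C minus that without it was -0.79 ± 0.24 for the assembly factor Psmg1 (adjusted p = 0.0472) and 0.68 ± 0.19 for Keap1, the adaptor that targets NRF2 for degradation (adjusted p = 0.027).

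For 2 genes a response differed between the labels, ATF3-/- minus WT. The P3C response of Psmb10 differed by -0.83 ± 0.18 (adjusted p = 0.00622), and the HDL response of the proteasome activator Psme4 by -0.75 ± 0.16 (adjusted p = 0.00853).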

How the results depend on the processing

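Of 245 called changes of members and companion genes, those that still passed in the same direction numbered 236 with array weights, 185 with chip as a fixed effect, 234 with chip as a random effect, 244 with the deposited matrix, 80 with median scaling, 219 with no detection filter, 244 with no normexp correction and 164 with only the groups compared; none of these settings turned a direction among these changes. With the next brightest probe 182 passed and 8 turned: Mafg with HDL in the smaller experiment (-0.019), Psmc2 (-0.25) and Psme1 (-0.0068) with CpG in WT, Psmd14 with P3C in WT (-0.14), Psme4 with HDL in WT (-0.0016), Psmc5 (0.28) and Psme1 (0.036) with HDL before CpG in WT, and Psme4 with P3C in ATF3-/- (0.081). In WT artery Psmb5 with HDL, not called as reported, was -1.16 with median scaling and -0.81 with the deposited matrix. Median scaling, which lacks the quantile step, moved the median of all genes by -0.10 to 0.19 in the smaller experiment, -0.32 to 0.09 in the main one and -0.97 to 1.42 in artery, and the deposited matrix by -0.53 to 0.88 in artery. Below, the number of members called is given where it differs from that reported by over 1.5 times, and the cause was not tested. The share of all genes called is not given beside these counts, so they cannot be set against it. Median scaling gave 2 for CpG in the smaller experiment. In WT it gave 5 for CpG, 5 for P3C, 0 for HDL, 2 for HDL before CpG, 0 for HDL before P3C and 0 for HDL by CpG. In ATF3-/- it gave 1 for CpG, 1 for P3C, 1 for HDL and 0 for HDL before either ligand. It gave 0 between labels in controls, HDL and HDL+CpG, and 22 in WT artery, all lower. Chip as a fixed effect gave 1 for HDL in the smaller experiment, 2 for HDL before P3C and 0 for HDL by CpG in WT, 6 for CpG, 6 for P3C and 4 for HDL in ATF3-/-, and 4 between labels in HDL+CpG; as a random effect it gave 2 for HDL before P3C in WT. Array weights gave 10 for CpG, 8 for HDL, 15 for HDL before CpG and 1 for HDL by CpG in the smaller experiment. In WT they gave 4 for HDL, 4 for HDL before P3C and 1 for HDL by P3C, in ATF3-/- 7, 5 and 2 for the same, between labels 7 in controls, 3 in P3C and 4 in HDL+CpG, 1 for the label difference in the CpG and 1 in the P3C response, and 1 for HDL in ATF3-/- artery. Only the groups compared gave 1 for CpG and 1 for HDL in the smaller experiment, 5, 1 and 0 for CpG, HDL before CpG and HDL by CpG in WT, 5 and 0 for CpG and HDL before CpG in ATF3-/-, and 1 between labels in HDL+CpG. No normexp correction and the deposited matrix each gave 3 for HDL and 2 for HDL before P3C in WT, 5 for HDL before P3C and 2 for HDL by P3C in ATF3-/-, 5, 2 and 3 between labels in controls, CpG and P3C, and 2 for the label difference in the CpG response, and the matrix 22 in WT artery, all lower. No detection filter gave 1 for HDL by P3C in ATF3-/- and 1 between labels in P3C and in HDL+P3C. The next brightest probe gave 6 for CpG and 2 for HDL before P3C in WT, 5 for HDL in ATF3-/-, and 1 and 0 between labels in CpG and HDL+P3C. Leaving out each array in turn gave, in the smaller experiment, 2 to 6 for CpG (2 without control replicate 2), 1 to 3 for HDL (1 without HDL replicate 1), 1 to 3 for HDL before CpG (1 without CpG replicate 1) and 0 for HDL by CpG. In WT it gave 10 to 14 for CpG, 13 to 16 for P3C, 0 to 1 for HDL (0 without control replicate 1), 5 to 9 for HDL before CpG (5 without CpG replicate 1), 1 to 2 for HDL before P3C (2 without HDL+P3C replicate 3), 0 to 2 for HDL by CpG (2 without CpG replicate 2) and 0 to 1 for HDL by P3C (1 without HDL replicate 1). In ATF3-/- it gave 5 to 10 for CpG (5 without control replicate 2), 7 to 10 for P3C, 1 to 2 for HDL (1 without control replicate 2), 1 to 2 for HDL before CpG (1 without HDL+CpG replicate 2), 1 to 3 for HDL before P3C (1 without HDL+P3C replicate 1), 0 for HDL by CpG and 0 to 1 for HDL by P3C (1 without P3C replicate 3). Between labels it gave 2 to 3 in controls, 0 to 5 in CpG (5 without WT CpG replicate 2), 0 to 2 in P3C (2 without ATF3-/- P3C replicate 1), 1 to 2 in HDL (2 without ATF3-/- HDL replicate 2), 1 to 3 in HDL+CpG (1 without ATF3-/- HDL+CpG replicate 2) and 0 to 2 in HDL+P3C (0 without WT HDL+P3C replicate 1). For label differences in response it gave 0 to 1 for CpG (1 without WT CpG replicate 2) and 0 for the others, and 0 in all artery comparisons. No paired analysis was possible because the replicate numbers follow record order and pair no arrays. Signals near background, as those of Psmd5, Psmd9, Psma8, Psmd2 and the companion gene Maff, limit what these genes can show.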

Other observations

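Several genes that act upstream of the proteasome moved with the ligands, as did many other genes. Of all 8626 genes tested in both macrophage experiments, 15.7% rose in 4 or more of the 5 ligand comparisons and 9.89% in all 5. Of the ubiquitin shuttle receptors, Rad23b rose in 4 of 5 ligand comparisons (0.29 to 0.58 over all 5) and Ubqln4 in 3 of 5 (0.24 to 0.73), while Ubqln1 passed in 0 of 5. The proteasome-bound ubiquitin ligase Ube3c rose in 4 of 5 (0.26 to 0.55), as did Syvn1, a ligase of the endoplasmic reticulum (0.26 to 0.54). With HDL, each of these 5 genes passed in 0 of 8 comparisons. Nfe2l2, the gene of NRF2, rose in all 5 ligand and in 4 of 8 HDL comparisons (0.30 to 1.11 over the 8), and Maff in all 5 and in 5 of 8.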
